A study of Mus musculus with 6 samples.

Results

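The genes described here are the nuclear genes for the mitochondrial respiratory chain, sorted by complex. They were taken as the protein-coding genes whose mouse symbol began with Nduf, Uqcr, Atp5 or Cox followed by a digit, or was Sdha, Sdhb, Sdhc or Sdhd. In GENCODE release M21, 117 symbols matched this pattern, 103 of them were protein-coding, and 102 of those were among the 53465 genes of the count table. They comprised 83 subunits, of which 36 belonged to complex I, 4 to complex II, 8 to complex III, 19 to complex IV and 16 to complex V, and 19 assembly factors and other non-subunits, of which 8 were assigned to complex I, 10 to complex IV and 1 to complex V. Ndufa4 and Ndufa4l2 were counted with complex IV despite their symbols. The pattern does not reach every gene of the chain: Cyc1, the cytochrome c1 subunit of complex III, and the assembly factors of complex II have other names.

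The respiratory chain passes electrons from NADH (complex I) and succinate (complex II) through ubiquinone to complex III, and on through cytochrome c to complex IV, which reduces oxygen. Complexes I, III and IV pump protons across the inner mitochondrial membrane, and complex V, the ATP synthase, uses the returning protons to make ATP. A mature oocyte is rich in mitochondria and depends on their ATP for spindle assembly and chromosome segregation, and its transcripts are largely stored messages made during growth, because transcription stops before maturation.

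RNA was sequenced from 6 pools of M II oocytes, each of 15 oocytes from 3 mice. The donors were female Kunming (KM) mice, an outbred stock, aged 9 to 10 months, and the source was the ovary. All oocytes were matured in vitro, 3 pools as controls without quercetin and 3 with quercetin at 10 μM. Quercetin is a plant flavonol with antioxidant activity. No younger oocytes are in the series, so the levels below belong to oocytes of aged mice with or without the compound. The labels do not say whether different pools came from separate mice or days, so p-values measure the spread between these pools. In pooled oocytes, fewer cells and less RNA per cell cannot be told apart.

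Total counts ran from 7880467 to 9938743 per pool, and 11842 genes passed the filter on low counts (edgeR's filterByExpr) and were tested. All 10 oocyte markers passed that filter. Of 12 cumulus and granulosa markers, 3 passed, and Foxl2, Amh and Fst were at 0 in all pools. The summed level of that list was 62.5 to 77.8 CPM (counts relative to library size, adjusted by edgeR's TMM factors) in controls and 79.4 to 84.6 CPM in quercetin pools. Most of it was Cyp19a1, which encodes aromatase. Of 5 blood and immune markers, Hbb-bs and Hba-a1 were at 0 throughout, Cd68 had 20 to 29 counts per pool, and Ptprc and Lyz2 had 0 to 6. Of 3 stroma markers, Col1a1 was at 0 throughout, Dcn had 10 to 30 counts per pool and Col3a1 0 to 4.

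Of the 102 genes, 80 were tested (68 subunits and 12 assembly factors). The other 22 (15 subunits and 7 assembly factors) had 0 to 20 counts per pool, and 3 of them had no read in any pool. Over all 102 genes, the chain took 0.321% ± 0.0445 of counts in the control pools and 0.293% ± 0.0244 in the quercetin pools (SD, n = 3 each). The summed level after TMM scaling was 2754, 3496 and 3086 CPM in the control pools and 2821, 3420 and 2837 CPM in the quercetin pools, so the groups overlapped.

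Known regulators of these genes include nuclear respiratory factor 1 (NRF1), the ETS family factor GABP (also called nuclear respiratory factor 2) and YY1, and 4 promoters are shown here, 1 with the recognition letters of each factor and 1 with none. RefSeq promoter windows on GRCm38.p6, from 250 bases before to 50 bases after the gene start, were found for 83 of the 102 genes. Searched on both strands, the NRF1 letters (GCGCA, any base, then GCGC) occurred in 19 of the 83 (22.9%), against 5.19% of all 27025 genes with such a window. The ETS letters CCGGAAGT occurred in 9 (10.8%, against 4.31%), and the YY1 letters AANATGGCG in 12 (14.5%, against 2.76%). At least 1 of the motifs was found in 37 of the 83 (44.6%, against 11.2%). The letters of these motifs do not contain one another. A match is a description of letters and not a measured binding site. The 27025 genes were not matched to the chain for gene type, expression or base composition. Below are Ndufa5, an accessory subunit of complex I with an NRF1 match (chr6:24527477-24527776, minus strand), Uqcr11, a small subunit of complex III with an ETS match (chr10:80406772-80407071, minus strand), Atp5b, the catalytic beta subunit of complex V with a YY1 match (chr10:128083057-128083356, plus strand), and Cox6b2, the testis-type subunit of complex IV, without any of the motifs (chr7:4753045-4753344, minus strand). Ndufa5 has a second RefSeq window (chr6:24527641-24527940, minus strand), which holds the same NRF1 match and is not shown. Both windows lie inside the GENCODE gene, whose start on the minus strand is at 24528013. Capitals mark the matched letters, on whichever strand they lie.
Ndufa5: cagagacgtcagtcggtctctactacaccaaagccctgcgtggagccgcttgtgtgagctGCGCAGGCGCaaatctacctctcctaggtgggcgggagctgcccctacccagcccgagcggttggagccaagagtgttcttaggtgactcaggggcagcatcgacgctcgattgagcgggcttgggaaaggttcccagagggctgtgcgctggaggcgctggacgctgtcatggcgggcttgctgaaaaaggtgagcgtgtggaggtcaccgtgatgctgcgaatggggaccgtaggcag
Uqcr11: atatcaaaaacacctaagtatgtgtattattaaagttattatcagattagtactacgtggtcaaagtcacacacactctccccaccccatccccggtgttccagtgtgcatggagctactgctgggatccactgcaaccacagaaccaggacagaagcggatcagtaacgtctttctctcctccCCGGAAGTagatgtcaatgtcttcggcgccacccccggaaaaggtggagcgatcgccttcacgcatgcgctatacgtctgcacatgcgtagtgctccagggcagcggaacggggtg
Atp5b: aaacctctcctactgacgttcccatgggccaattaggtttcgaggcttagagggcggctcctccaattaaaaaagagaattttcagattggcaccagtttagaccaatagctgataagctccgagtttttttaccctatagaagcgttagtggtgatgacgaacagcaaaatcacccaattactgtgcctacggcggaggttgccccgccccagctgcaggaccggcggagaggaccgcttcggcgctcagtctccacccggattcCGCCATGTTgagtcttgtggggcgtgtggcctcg
Cox6b2: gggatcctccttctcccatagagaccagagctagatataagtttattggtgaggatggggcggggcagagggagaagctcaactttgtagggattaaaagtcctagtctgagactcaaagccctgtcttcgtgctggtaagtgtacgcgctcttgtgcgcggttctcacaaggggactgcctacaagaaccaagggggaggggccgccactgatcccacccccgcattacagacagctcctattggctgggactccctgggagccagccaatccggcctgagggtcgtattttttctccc

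Levels of different genes were compared per length, as TPM, in which counts are divided by the summed exon length of each gene and scaled to the same total in every pool. Means over all 6 pools ran from 0 to 1076 TPM among subunits, with a median of 11.2 TPM. There were 12 subunits above 100 TPM, 7 of them of complex IV, 2 each of complexes I and V and 1 of complex III. At the other end, 13 subunits were below 1 TPM. Within complexes I, III, IV and V, the highest subunit was over 100 TPM and the lowest under 1 TPM, while all 4 subunits of complex II lay between 7.97 and 43.5 TPM. These counts and ranks depend on the length used. Summed exon length can far exceed the median coding transcript length, as in Uqcrc1 (4135 against 533 bases) and Atp5l (6443 against 544). The coding transcript length was applied only to paralogues below.

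**Figure D1:**
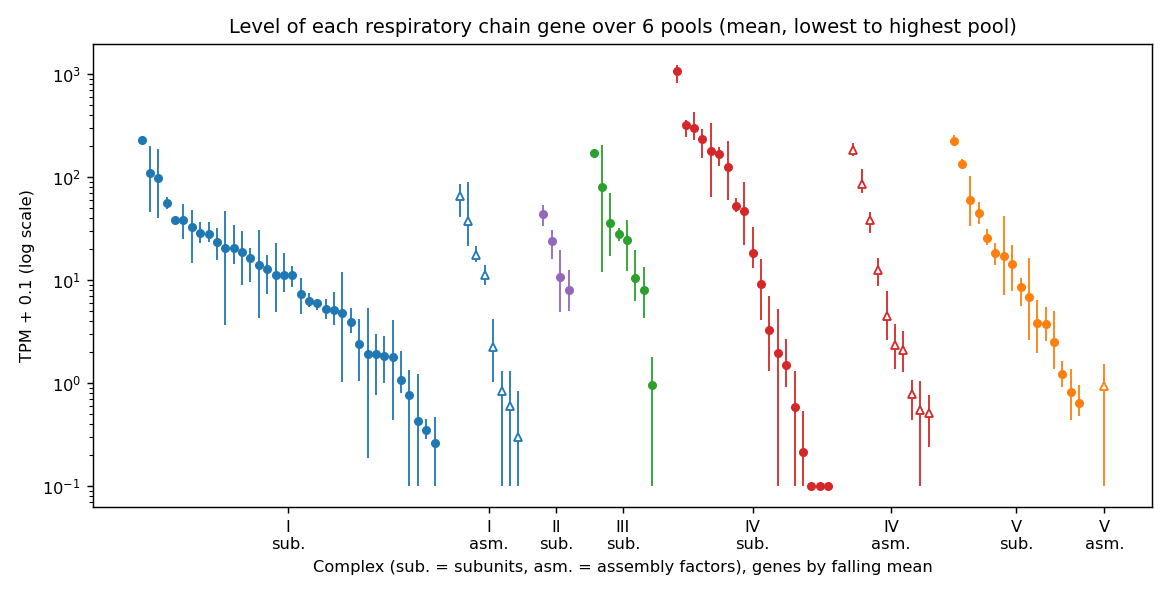
Mean level of each of the 102 genes over the 6 pools in TPM + 0.1 on a log axis, by complex, with lines from the lowest to the highest pool; filled circles are subunits and open triangles assembly factors. Complex IV holds the highest subunit (Cox8a, 1076 TPM) and 3 genes at 0, and complex I and complex V each reach from over 200 TPM to below 1 TPM.

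In complex I, the highest subunit was Ndufb6, an accessory subunit of the membrane arm, at 238 ± 11.4 TPM in control and 220 ± 6.33 TPM in quercetin pools (SD, n = 3 each). The Ndufb6 value has a limit, since 39.0% of its exon length overlaps Smim27. The 7 core subunits, which carry the flavin and iron-sulphur clusters, were at 11.1 TPM or less. Ndufv1, which binds NADH and FMN, had 28, 46 and 34 counts in control and 28, 33 and 45 in quercetin pools. Ndufs1, the largest core subunit, had 66, 50 and 34 against 45, 31 and 73. The 29 accessory subunits ranged from 0.162 to 229 TPM, so core and accessory subunits overlapped in level.

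All 4 subunits of complex II were measured. Sdha, the flavoprotein with the succinate site, was highest at 42.4 ± 1.57 TPM in control and 44.6 ± 10.2 TPM in quercetin pools. Sdhc and Sdhd, the membrane anchors, averaged 22.2 ± 6.27 and 12.6 ± 5.90 TPM in control pools. Sdhb, the iron-sulphur subunit, was the lowest of the complex over all pools at 7.28 ± 2.22 TPM in control and 8.66 ± 3.71 TPM in quercetin pools. In the quercetin pools Sdhd averaged 8.64 ± 4.24 TPM, so the means of Sdhb and Sdhd were alike there. In the control pools Sdhb had 40, 71 and 64 counts over 2239 bases of exon. Sdhd had 39, 81 and 45 over 1231 bases, so it was higher per base in each control pool.

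In complex III, Uqcrc2, a core subunit without redox centres, stood highest at 167 ± 6.71 and 173 ± 12.5 TPM in control and quercetin pools, and 19.7% of its exon length overlaps Pdzd9. Its partner core subunit Uqcrc1 was the lowest, at 1.04 ± 0.727 and 0.690 ± 0.597 TPM, with 4, 24 and 18 counts in control and 0, 18 and 14 in quercetin pools. These core proteins are built together into the enzyme, and the counts of Uqcrc2 were 1452 to 1594 in control and 1377 to 1791 in quercetin pools. Uqcrfs1, the Rieske iron-sulphur protein, had 33, 33 and 69 counts in control and 35, 24 and 38 in quercetin pools.

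Complex V was led by Atp5b at 209 ± 5.63 and 232 ± 22.5 TPM in control and quercetin pools, followed by Atp5c1, the central stalk gamma subunit. By summed exon length, the lowest tested subunit was Atp5l, the membrane subunit g, with 9, 18 and 21 counts in control and 9, 12 and 8 in quercetin pools. The c-ring protein is encoded by 3 genes whose mature proteins are identical. Atp5g3 was the highest of them in all 6 pools, at 6.60 to 9.98 times the TPM of Atp5g2 and 7.88 to 20.3 times that of Atp5g1. By coding transcript length these ratios were 8.18 to 12.4 and 13.03 to 33.5. The ratio to Atp5g1 depends much on length, which was 4912 or 2675.5 bases for Atp5g1 and 2181 or 718.5 for Atp5g3. Atp5g1 had 6, 21 and 18 counts in control and 10, 8 and 12 in quercetin pools. Atp5g3 had 43, 75 and 63 against 79, 72 and 65. Atp5g2 was below the filter, with 5 to 9 counts per pool, and 40.2% of its transcript sequence in words of 31 bases occurs in other genes. For Atp5g1 this share was 14.1% and for Atp5g3 it was 0%, which limits both ratios.

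Complex IV has subunits in alternative forms that are known to mark heart and muscle, lung or testis, and these allow a reading of which form the oocyte message carried. Cox8a, the ubiquitous form of subunit 8, was the highest gene of the whole chain, at 1131, 1113 and 1218 TPM in control and 1006, 1169 and 821 TPM in quercetin pools. The muscle form Cox8b had no read in any pool, and the testis form Cox8c had 0, 8 and 1 counts in control and 2, 4 and 3 in quercetin pools. Cox7a1, the muscle form of subunit 7a, and Cox7b2, a testis form, also had no read, which with 3 counts as the floor allows up to 0.302 to 0.381 CPM per pool by unscaled library size, for counting error only. Cox7a2, the ubiquitous form, was at 226 to 429 TPM, and Cox7a2l, a related protein that joins complexes III and IV in supercomplexes, was at 8.57 to 16.4 TPM.

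For subunit 6b the order was the other way round. Cox6b2, known as the testis form (chr7:4751792-4753094, minus strand), was at 357, 353 and 339 TPM in control and 292, 335 and 242 TPM in quercetin pools. The ubiquitous form Cox6b1 (chr7:30616861-30626151, minus strand) was at 87.8, 226 and 118 TPM in control and 59.3, 126 and 137 TPM in quercetin pools. Cox6b2 was above Cox6b1 in all 6 pools, by 1.56 to 4.92 times. With the median coding transcript length in place of the summed exon length, a choice added after the data were seen, the ratio was 2.73 to 8.61. None of the 31-base words of Cox6b2 occurs in another gene, and 2.19% of those of Cox6b1 do. The muscle form of subunit 6a behaved like those above, with Cox6a1 at 63.4 to 332 TPM and Cox6a2 at 1.22 to 6.93 TPM.

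Subunit 4, which joins early in assembly, was at a low level among the tested subunits of this complex. Its ubiquitous form Cox4i1, at 18.4 TPM over all pools, was the median of all 19 subunits. Cox4i1 had 86, 171 and 103 counts in control and 71, 99 and 84 in quercetin pools (21.8 ± 9.34 and 14.9 ± 1.83 TPM), and Cox4i2, the lung form, had 0 to 4 counts per pool. Ndufa4, now assigned to complex IV, was at 153 to 289 TPM, and its hypoxia-responsive relative Ndufa4l2 had 0 to 2 counts. Cox7b, which had the lowest mean of the tested subunits of complex IV, was at 3.97 to 16.0 TPM.

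**Figure D2:**
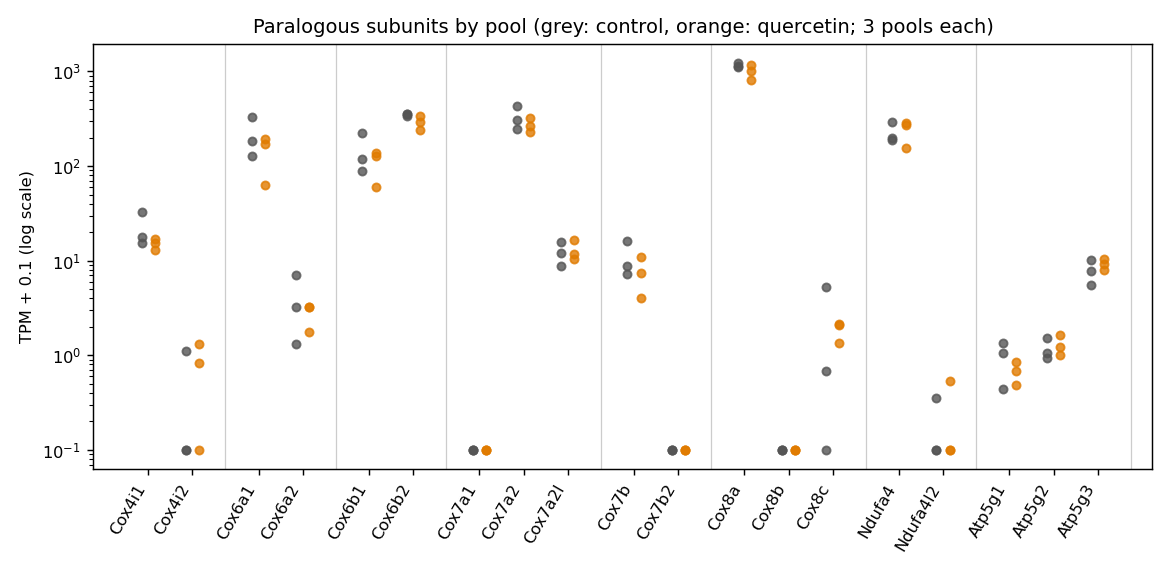
Level of each paralogous subunit in each pool, in TPM + 0.1 on a log axis, with control pools in grey and quercetin pools in orange, 3 each. Cox6b2 lies above Cox6b1 in every pool, whereas Cox7a1, Cox7b2 and Cox8b sit at 0 in all 6 pools.

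Among the assembly factors, Cox10, the farnesyltransferase in the synthesis of heme A for complex IV, was the highest, at 173 ± 11.4 TPM in control and 195 ± 23.7 TPM in quercetin pools. It is named after its values were seen. Of 8 complex I factors, 4 were tested, and Ndufaf1, Ndufaf3, Ndufaf5 and Ndufaf6 had 0 to 17 counts per pool. Cox20, a chaperone of the Co2 subunit, had 0 to 3 counts, and 89.2% of its 31-base words are shared with other genes.

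The comparison of quercetin with control pools asks whether the compound moved the messages of the chain. A gene counted as called when its fold change exceeded 2 and its adjusted p was below 0.05 in edgeR (quasi-likelihood test, Benjamini-Hochberg). By this rule 0 of the 80 tested genes of the chain were called, and 0.0% of all 11842 tested genes. The smallest adjusted p over all genes was 0.0730, and DESeq2 called 12 genes, none of the chain. At an unadjusted p under 0.05, again 0 of 80 were found in either direction, where 4.03% of all tested genes were (477 genes, 2.14% higher and 1.89% lower), and DESeq2 gave 1 of 80, Ndufaf4. The median standard error of the 80 log2 fold changes was 0.34, so small shifts of single genes were not detectable at this number of pools.

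The gene with the smallest p was Ndufaf4, a complex I assembly factor, with 372, 1179 and 437 counts in control and 293, 381 and 418 in quercetin pools. The groups overlapped, and control 2 stood apart from the other 5 pools. The log2 fold change was -0.86 (SE 0.42, unadjusted p = 0.0702, adjusted p = 0.988, edgeR). Atp5d, the delta subunit of the central stalk, came next with 27, 41 and 28 counts in control and 15, 15 and 27 in quercetin pools (log2 fold change -0.72, SE 0.38, edgeR adjusted p = 0.988). These genes are named by their p and were chosen after their values were seen.

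In 2 of the 80 genes the pools of the groups did not overlap in log2 CPM, against 10.6% of all tested genes. Both were higher with quercetin (5.43% of all genes were higher in this way and 5.15% lower). Atp5b (chr10:128083273-128090391, plus strand), whose promoter is shown above, had 3280, 2920 and 3387 counts in control and 3518, 3729 and 3489 in quercetin pools. By library size without TMM scaling its levels were 378, 371 and 380 CPM in control and 416, 375 and 430 CPM in quercetin pools, which overlapped, whereas those of Ndufa9 still did not overlap. The Atp5b log2 fold change was 0.20 (SE 0.12, edgeR adjusted p = 0.988), and the two-sided exact permutation test gave p = 0.1, the smallest it can give with 3 pools against 3. Ndufa9 (chr6:126821721-126849136, minus strand), an accessory subunit between the arms of complex I, had 38, 29 and 36 counts in control and 42, 46 and 44 in quercetin pools, with a log2 fold change of 0.39 (SE 0.26, edgeR adjusted p = 0.988). Among the 22 genes below the filter, Ndufs8, Ndufb7 and Ndufaf6 had all quercetin pools below all control pools, and 0 of the 22 had them all above. Of the 12634 genes over all that had at least 1 count and did not pass the filter, 3.4% were lower and 1.79% higher in this way. Ndufs8, a core iron-sulphur subunit of complex I, had 9, 18 and 20 counts in control and 5, 8 and 4 in quercetin pools.

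By sign, 51 of the 80 estimates were below 0 and 29 above (63.8% below, against 53.6% of all tested genes), and their median was -0.12, against -0.026 over all genes. Scaled by library size only, 60 of 80 were below 0 (65.5% of all tested genes), with a median of -0.22 against -0.11. This balance rests on single pools. Without control 2 the median was 0.076 and 30 of 80 estimates were below 0, and without quercetin 2 it was -0.30. Subunits and assembly factors lay on opposite sides: 48 of 68 subunits were below 0 with a median of -0.17, and 3 of 12 assembly factors with a median of 0.14. The difference between them was not tested, and leaving out 1 pool moved the subunit median between -0.40 and 0.070 and the assembly factor median between -0.023 and 0.20.

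Complex by complex, complex II was the exception among the subunits, with 3 of 4 estimates above 0 and a median of 0.18. The Sdhd estimate was -0.51 (SE 0.41), from 39, 81 and 45 counts in control and 21, 41 and 53 in quercetin pools, and those of Sdha, Sdhb and Sdhc were 0.11, 0.28 and 0.25. In complex I, 21 of 30 tested subunits were below 0 (median -0.12). The accessory subunits made up this balance, with 19 of 24 below 0 and a median of -0.19, whereas 2 of the 6 tested core subunits were below 0 and their median was 0.038. Complex III had 6 of 8 below 0 (median -0.30), complex IV 9 of 11 (median -0.22) and complex V 11 of 15 (median -0.28). Without 1 pool each of these medians except those of complexes II and IV took the other sign in at least 1 case. Summed over subunits, complex IV was at 1096 ± 142 CPM in control and 990 ± 203 CPM in quercetin pools, and complex I at 491 ± 102 and 457 ± 79.6 CPM. Complex V was at 644, 686 and 664 CPM in control and 716, 709 and 691 CPM in quercetin pools, which did not overlap. By library size alone they did (664, 727 and 665 against 677, 652 and 727 CPM). Atp5b alone made up most of that sum, and the same sum per length (533, 630 and 543 against 523, 535 and 600 TPM) did overlap.

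**Figure D3:**
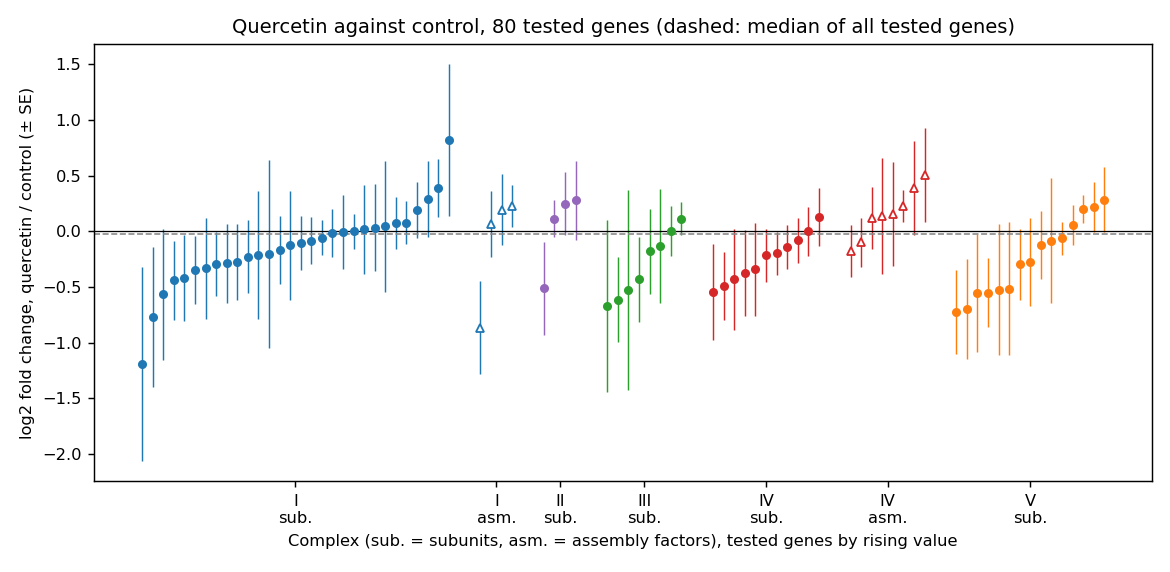
Log2 fold change of quercetin over control (edgeR, with its SE) for the 80 tested genes, by complex; filled circles are subunits, open triangles assembly factors, and the dashed line is the median of all tested genes (-0.026). More subunits of complexes I, III, IV and V lie below 0 than above, with bars that mostly reach 0, and none passed an unadjusted p under 0.05.

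**Figure D4:**
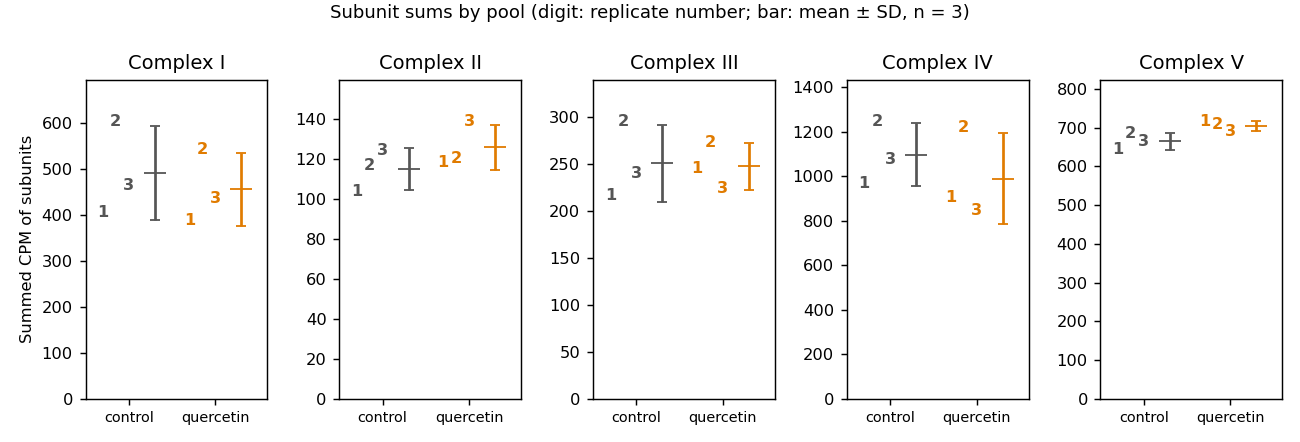
Summed CPM of the subunits of each complex in each pool, where a digit is the replicate number in the labels and the bar is the mean ± SD of 3 pools. Control 2 is the highest control pool for complexes I, III, IV and V, and the groups do not overlap for complex V on this TMM-scaled measure.

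By length, of 34 tested genes with a summed exon length under 1500 bases, 28 were below 0 (median -0.22), against 55.5% of all 1978 tested genes of that length. The 46 longer genes were split 23 to 23. The difference between short and long genes was not tested. Without control 2, 15 of the 34 short genes and 15 of the 46 longer ones were below 0. Their medians were then 0.029 and 0.092, so most short genes no longer lay below 0. Across the 80 genes, Spearman's rho between exon length and log2 fold change was 0.33, a description over genes that share the same 6 libraries. Leaving out 1 pool moved the median of the 34 short genes between -0.53 and 0.029.

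The genes of the chain differed more between certain pools of one group than most genes did. The pools compared here were chosen after the values were seen. Control 2 was above control 1 in 64 of the 80 genes (48.3% of all tested genes), and by at least 2-fold in 29 (6.69%). Quercetin 2 was above quercetin 1 in 62 (49.0%), and by at least 2-fold in 22 (5.07%). In 19 genes the pools were at least 2-fold apart in this direction in both groups, against 1.69% of all tested genes, and 0 of the 80 were at least 2-fold lower in both (0.642%). The median difference was 0.69 on the log2 scale in the controls and 0.42 in the quercetin pools, against -0.016 and -0.012 over all genes. Control 1 was the lowest control pool in 56 genes (35.0% of all) and quercetin 1 the lowest quercetin pool in 49 (28.5%), and control 2 was the highest control pool in 52 (33.2%).

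Uqcr11 had the widest range of the chain among genes with more than 3 counts in every pool, with 61, 443 and 174 counts in control and 27, 234 and 176 in quercetin pools. The number 1 pool was lowest and the number 2 pool highest in both groups, with the second over the first at 7.77-fold and 7.59-fold. Its estimate for quercetin was -0.67 with an SE of 0.77. Ndufa5 had 48, 165 and 74 counts in control and 13, 92 and 66 in quercetin pools, and Ndufa7, another accessory subunit, 7, 74 and 16 against 6, 44 and 36. Ndufv3 of the NADH-binding module had 6, 57 and 23 against 1, 21 and 16. The same order was found in Cox6a1 (321, 791 and 486 against 157, 508 and 439) and in Cox6b1 (225, 542 and 317 against 148, 378 and 315). By contrast, Cox6b2 had 1430, 1326 and 1424 counts in control and 1140, 1571 and 875 in quercetin pools. The forms of subunit 6b thus did not vary together, and their ratio was lowest in control 2. Apart from the members fixed by the naming rule (Cox6a1, Cox6b1 and Cox6b2), these genes were chosen after their values were seen.

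The 19 genes were 8 subunits of complex I (Ndufa1, Ndufa2, Ndufa3, Ndufa5, Ndufa7, Ndufa11, Ndufc2 and Ndufv3), all accessory, 4 of complex III (Uqcr10, Uqcr11, Uqcrc1 and Uqcrh), 4 of complex IV (Cox6a1, Cox6b1, Cox6c and Cox7b), 2 of complex V (Atp5j and Atp5mpl) and 1 assembly factor, the copper chaperone Cox17. Genes under 1500 bases made up 13 of them, which is 13 of the 34 tested genes of the chain of that length. Over all tested genes under 1500 bases, 4.55% met the same condition. None of the 6 tested core subunits of complex I, the 4 subunits of complex II or the 5 subunits of the F1 head of complex V was among them. Below that cut, the core subunits had median log2 differences between pools 2 and 1 of 0.63 in control and 0.40 in quercetin pools. For complex II these were 0.68 and 0.75, and over the 80 genes 0.69 and 0.42. Over the 5 head subunits, Atp5b among them, they were -0.069 and -0.11. Atp5e of the head was still 5.31-fold higher in control 2 than in control 1, and 1.99-fold higher in quercetin 2 than in quercetin 1. At the steady end, 15 of the 77 tested genes with more than 3 counts in every pool ranged by less than 1.5-fold over all 6 pools (24.4% of the 11466 such genes over all), among them Ndufb6, Ndufa10, Uqcrc2, Sdha and Atp5b, while 23 ranged by more than 3-fold (16.3% of the 11466).

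**Figure D5:**
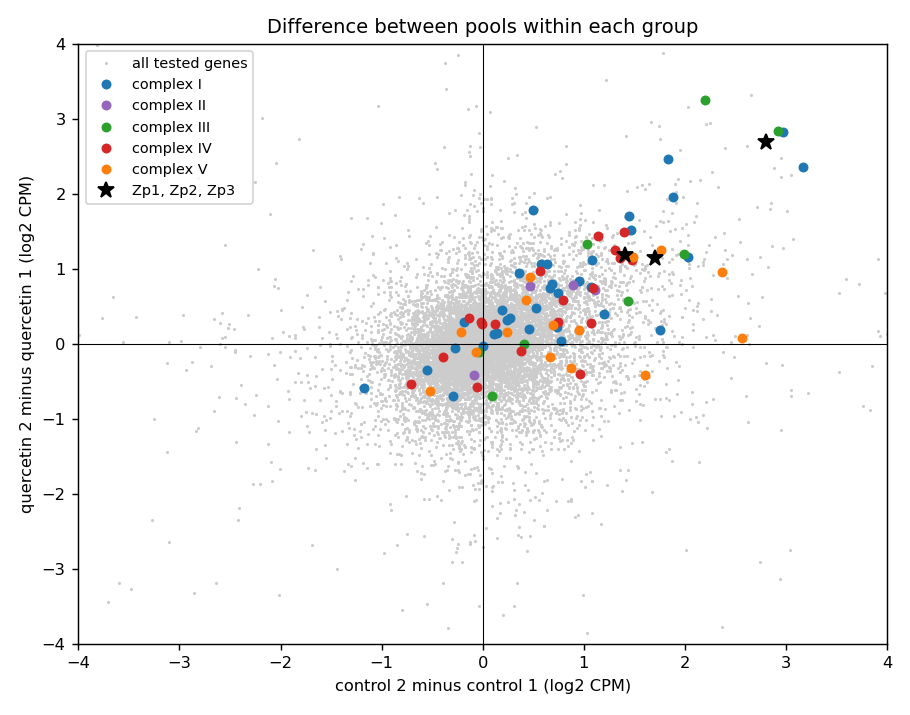
Difference between the pools numbered 2 and 1 in log2 CPM, controls on the horizontal and quercetin pools on the vertical axis, for the tested genes of the chain (coloured by complex), all tested genes (grey; 42 lie outside the axes) and Zp1, Zp2 and Zp3 (stars). Genes of the chain spread into the upper right corner, where Uqcr11, Ndufa7 and Ndufv3 lie near Zp2, and few lie in the lower left.

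Across the 80 genes, Spearman's rho between the control difference and the quercetin difference was 0.69, and it was 0.26 across all 11842 tested genes. These are descriptions over genes measured in the same 4 libraries. Some oocyte markers moved in the same way. Zp2, a zona pellucida glycoprotein, had 1990, 12980 and 5601 counts in control and 1045, 7734 and 11260 in quercetin pools, and Zp1 had 1534, 3800 and 3202 against 1318, 3429 and 4571. Of 10 oocyte markers, 3 (Zp1, Zp2 and Zp3) were at least 2-fold apart in both groups, and control 1 was the lowest control pool in 8. Gdf9, an oocyte growth factor, had 52260, 46443 and 51845 counts in control and 59906, 54768 and 56610 in quercetin pools. The summed level of all 10 was 16317 to 20216 CPM in control and 17938 to 19536 CPM in quercetin pools. No oocyte marker was at 0. The cumulus list did not have this order, with 76.5, 62.5 and 77.8 CPM in control and 84.6, 84.5 and 79.4 CPM in quercetin pools. The part of the zona genes' pattern in that of the chain was not tested.

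The other genes of the pathway on a fixed list (assembly factors, ubiquinone synthesis, cytochrome c and regulators such as Nrf1 and Gabpa) gave the following values. Of 65 genes in the table, 47 were tested, 27 were below 0 and 20 above (median -0.067), and 0 had an unadjusted p under 0.05 by edgeR. In this list, 1 gene of 47 was at least 2-fold apart in both pairs of pools. The 13 protein genes of mitochondrial DNA, which encode the remaining subunits of complexes I, III, IV and V, were all below 0 (median -0.31), with 7 not overlapping between groups (5.15% of all genes in this direction) and 4 at an unadjusted p under 0.05 (1.89% of all genes). Their smallest adjusted p was 0.988 by edgeR. None of them was 2-fold apart between the pools numbered 2 and 1, and they are transcribed as long shared precursors, so they are not separate measurements.

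Some values are limited by sequence that genes share, because the counting settings for strand and for reads matching several genes are not given in the sources used here. More than 25% of the 31-base words were shared with other genes in 11 of the 80 tested genes, highest in Ndufaf2 (65.1%), Cox16 (55.2%), Atp5o (49.6%) and Cox11 (47.9%). In 6 tested genes more than 25% of the exon length overlapped another gene. Uqcr11, Ndufa5, Ndufa7 and Cox6b2 had no exon overlap. Their shares of 31-base words found in other genes were 12.1% in Uqcr11, 0.972% in Ndufa5, 3.99% in Ndufa7 and 0% in Cox6b2. The limit from shared sequence thus applies to Uqcr11 as well.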

How the data were processed

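RNA from 6 pools of mouse M II oocytes was sequenced after Smart-seq library preparation. The authors deposited counts of reads for 53465 Ensembl genes, one column per pool, not normalized. The methods name Hisat2 and GRCm38, whereas the submitters' processing notes name CASAVA 1.8 and TopHat2 2.0.6 with the same build. The counting program is not given in the sources used here. Groups and replicate numbers were taken from the labels.

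Total counts were 7880467 to 9938743 per pool. Genes were filtered with filterByExpr (minimum count 10), scaled by TMM and compared by the quasi-likelihood test of edgeR 4.0.16 (R 4.3.3) without covariates, with Benjamini-Hochberg adjustment over 11842 genes. Each SE was obtained as the log2 fold change over the root of its F statistic. For single genes, an exact permutation test (two-sided) was run on log2 CPM, with 2 as the prior count. TPM were computed here from the counts and the summed exon length of GENCODE release M21. The fit was tested on simulated counts. Shared sequence was measured in words of 31 bases.

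Genes named were those passing the thresholds, the highest and lowest tested subunit of each complex, those whose pools did not overlap, fixed paralogue families, complex II and 4 catalytic subunits. The genes and lists were chosen with earlier results of these data known. Alternatives were DESeq2 1.42.0, limma-voom (limma 3.58.1), other scalings and filters, the replicate number as a block and leaving out pools. Scripts used Python 3.11.15, pandas 2.3.3 and matplotlib 3.10.9. A second Atp5o identifier was not analysed here, and 1 gene that the naming rule selects is not reported here.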

Additional observations from a re-analysis of the deposited data

How the results depend on the processing

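No gene of the chain was called in any setting. The number of genes called over all genes was 0, and became 12 with DESeq2, 16 with edgeR's likelihood ratio test, 3 without a filter, 5 without both pools numbered 1 (chosen after seeing the data) and 0 to 7 when 1 pool was left out (7 without quercetin 1, 6 without quercetin 3, 2 without control 1, 2 without control 2 and 1 without quercetin 2). Genes of the chain lower at an unadjusted p under 0.05 numbered 0, and 1 with DESeq2 (Ndufaf4), 2 without a filter (Ndufs8 and Ndufaf4), 1 without both pools numbered 1 (Ndufs8) and 0 to 3 with 1 pool left out (3 without control 1, 2 without control 3, 2 without quercetin 2 and 1 without quercetin 3). Genes higher numbered 0, and 0 to 1 with 1 pool left out (Ndufb5 without control 1, Cox16 without control 2). The shares of all tested genes at that p in these settings are not given here, and in the main fit the share was 4.03%. The median log2 fold change of -0.12 ran from -0.30 to 0.076 with 1 pool left out, and was -0.22 with library size only, where the median of all tested genes was -0.11.

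The pools share replicate numbers in the labels. Deviations of same-numbered pools from their group means correlated by 0.296, 0.101 and -0.030 over all tested genes (0.750, 0.478 and -0.368 over the 80 genes of the chain). The mean was 0.122 for same-numbered and -0.061 for other-numbered pools over all tested genes (0.287 and -0.159 over the chain). Deviations within a group sum to 0, which ties the other-numbered mean to the same-numbered one. The negative values are therefore not a separate comparison. Not every pool correlated best with its own number, since control 2 did so with quercetin 3. The main fit did not pair the pools, and whether the numbers mark a shared batch was not tested. With the replicate number as a block, 3 of the 80 genes of the chain (Ndufa5, Cox6a1 and Ndufv3) were lower at an unadjusted p under 0.05 and 0 were called. In the main fit 4.03% of all tested genes passed that p in either direction, and 1.89% were lower. The share of all tested genes under the block is not given here, so these 3 genes are not a result about the chain.

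Estimates near 0 changed sign. Ndufv1 (-0.0060) was 0.012 with DESeq2, 0.012 with limma-voom, 0.0049 without a filter, 0.0024 with the block and 0.012 with DESeq2's size factors. Ndufs1 (0.030) was -0.034 with library size only, -0.023 with limma-voom and -0.014 with the block. Ndufa7 (-0.21) was 0.17 with limma-voom and 0.040 with the block, and Atp5g3 (0.28) was -0.049 without both pools numbered 1. With 1 pool left out, the log2 fold change ran from -0.22 to 0.25 in Ndufv1, -0.35 to 0.31 in Ndufs1, -0.69 to 1.34 in Ndufa7, -1.13 to 0.33 in Uqcr11, -0.052 to 0.34 in Cox7a2l, -0.64 to 0.090 in Cox6b1, -0.43 to 0.011 in Cox7a2, -0.62 to 0.0033 in Uqcrfs1, -1.07 to 0.030 in Uqcrc1, -0.11 to 0.35 in Ndufa4, -0.14 to 0.014 in Ndufb6 and -0.33 to 0.049 in Cox8a. In all, 432 of 460 alternative values of named genes kept their sign and their side of the threshold. Counts below about 20 per pool limit the 22 untested genes.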
